A study of Mus musculus with 4 samples.

Results

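The response of normoxic dendritic cells to poly I:C was read from 2 arrays, the array of cells given poly I:C and the array of cells left in media. All genes with an intensity of 64 or more on either array were described, 2451 of the 22221 genes with a symbol. The dendritic cells were grown from bone marrow of C57Bl/6 mice with GM-CSF and were given poly I:C at 10 µg/ml, or media alone, for 16 h in normoxia. A second pair of arrays came from the same kind of cells given poly I:C or media in hypoxia of 0.5%, the gas not being named in the labels. Total RNA of each condition was hybridised to 1 Affymetrix Mouse Gene ST 1.0 array, so the study holds 4 arrays and no replicates. GM-CSF cultures of bone marrow are mixed and hold macrophage-like as well as dendritic cells, and how many mice were pooled was not stated. No difference given here therefore has a replicate error or a test. Throughout, "higher" and "lower" mean a difference of 2-fold or more with poly I:C relative to media, and every fold is given as a log2 difference with the intensities on both arrays.

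Poly I:C, a polymer of inosine paired with a polymer of cytidine, imitates the double-stranded RNA of replicating viruses. It is sensed in endosomes by TLR3 and in the cytosol by the helicases MDA5 and RIG-I, and both routes switch on interferon beta and NF-kB. The secreted interferon then signals through JAK kinases to transcription factors that bind interferon-stimulated response elements in the promoters of many genes. In dendritic cells the same stimulus is known to drive maturation, in which antigen uptake gives way to antigen presentation, co-stimulation and migration to lymph nodes.

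With poly I:C, 373 genes were higher, 15.2% of those described, and 183 were lower, 7.47%. The 13 reference genes above the floor ranged from -0.89 to 0.67, with 6 above 0 and 7 below, and a median of -0.20. The summed intensity of all 15 on the array was 20204 with poly I:C and 17955 in media, so centring on their median is itself uncertain. After that centring, which raised every difference by 0.20, the split was 446 higher and 112 lower. Under that centring lower genes close to the limit fell short of 2-fold, among them, of those named below, ATP6, Acadm, Atp6v0d2, Ddx3x, Dusp3, Eif3a, H2ac10, Herpud1, Hsp90b1, Ifngr1, Mbnl1, Mt1, Plxnd1, Slc1a5, Spcs3, Tbxas1 and Znrf2. The distribution was uneven: 78 genes were higher by 8-fold or more, against 6 lower by that much, whereas 1404 genes stayed within 1.5-fold. The median over all genes was -0.05, with quartiles of -0.49 and 0.50. Of the 373 higher genes 53 belonged to the interferon GTPases, the IFIT, OAS and p200 families or the Schlafen, Ms4a and Ly6 families, and 115 belonged to no list of this report. Because a gene entered through either array, 265 of the higher genes reached 64 with poly I:C only and 125 of the lower genes reached it in media only, and the direction of such genes is partly fixed by the rule. Among the 1612 genes at 64 or more on both arrays, 108 were higher (6.70%) and 58 were lower (3.60%). The dimmest gene taken in was Cdkn2aipnl at 64.01 and the brightest left out was Mcmbp at 63.99. A low reading also bounds the folds: 63 of the higher genes read under 16 in media and 15 of the lower genes read under 16 with poly I:C, and folds of such genes are uncertain.

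**Figure D1:**
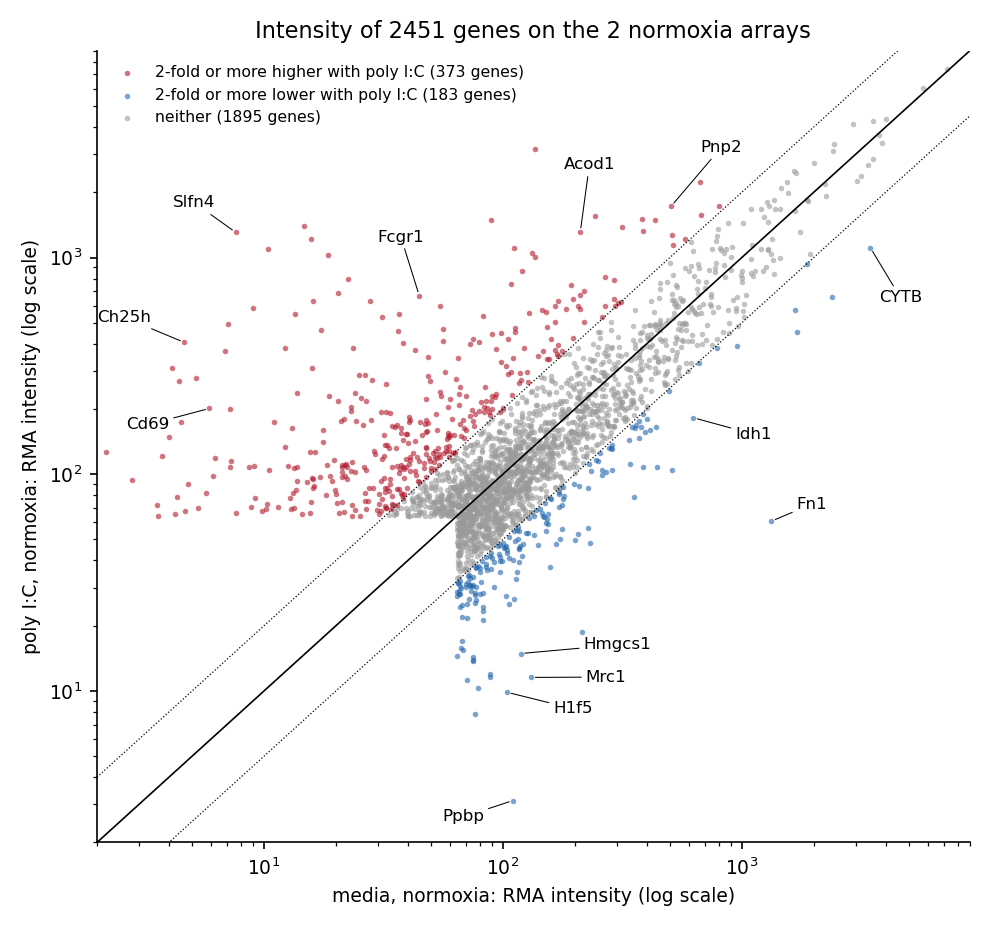
Intensity of each of the 2451 genes with poly I:C (vertical axis, log scale) against its intensity in media (horizontal axis, log scale) in normoxia, 1 array each, with higher genes in red and lower genes in blue. The 373 higher genes spread far above the line of equal intensity, up to Slfn4 at 1307 against 7.61, and the 183 lower genes lie below it, down to Ppbp at 3.12 against 110.4.

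The arrays were alike in scale, with median intensities of 3.90 to 4.09 and highest intensities of 7225 to 8810 over all 4. The cell type label was set against marker genes. Itgax, which encodes CD11c, was at 328 with poly I:C and 615 in media, and the MHC class II gene H2-Aa was at 1009 with poly I:C and 902 in media, but Flt3 (3.83 against 3.26) and Zbtb46 (6.21 against 5.91), which mark dendritic cells, lay near the bulk of each array. Of 17 macrophage and monocyte markers 16 were above the floor, and their summed intensity was 6661 with poly I:C and 7520.5 in media. The dendritic cell markers, of which 6 of 16 were above the floor, summed to 3885 and 3888. Of the markers of other lineages 1 of 19 in the neutrophil list reached the floor, Mmp8, and that list summed to 191 with poly I:C and 545 in media. In the eosinophil, mast cell and basophil list 2 of 17 did, Ear1 and Ear2, with sums of 329.7 with poly I:C and 174 in media. In the erythroid list 1 of 12 did, Car2, with sums of 207 with poly I:C and 63.9 in media. The plasmacytoid list had 1 of 8, Bst2 (summed 611 with poly I:C and 88.2 in media), the T and natural killer cell list 1 of 15, Il7r (417 with poly I:C and 305 in media), and the stromal and endothelial list 1 of 12, Kdr (116 with poly I:C and 55.3 in media). None of the 9 B cell markers did (24.6 with poly I:C and 23.1 in media). The megakaryocyte and platelet list summed to 59.5 with poly I:C and 211 in media, of which Ppbp, a platelet chemokine, gave 3.12 and 110.4 and Pf4 gave 13.6 and 44.5. The part of cell composition in the differences was not tested, and fewer cells of a type cannot be told apart from less RNA per cell in these bulk samples.

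The promoters of the genes were searched for short motifs. GAAA followed by any 2 bases and a second GAAA, a form of the interferon-stimulated response element that interferon regulatory factors bind, was searched on both strands from 250 bases before to 50 bases after each RefSeq gene start (build GRCm38.p6). This motif stood in 62 of the 292 higher genes with a promoter in the table (21.2%), in 4 of 126 lower genes (3.17%), in 65 of 1437 genes that were neither (4.52%) and in 1079 of all 27025 promoters (3.99%). The share was larger for larger differences: 20 of 170 promoters of genes higher by less than 4-fold held it (11.8%), 22 of 67 of those higher by 4-fold to 8-fold (32.8%) and 20 of 55 of those higher by 8-fold or more (36.4%). Related family members share promoter sequence, so these counts are not of independent genes, and a match is a description of letters, not of binding.

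**Figure D2:**
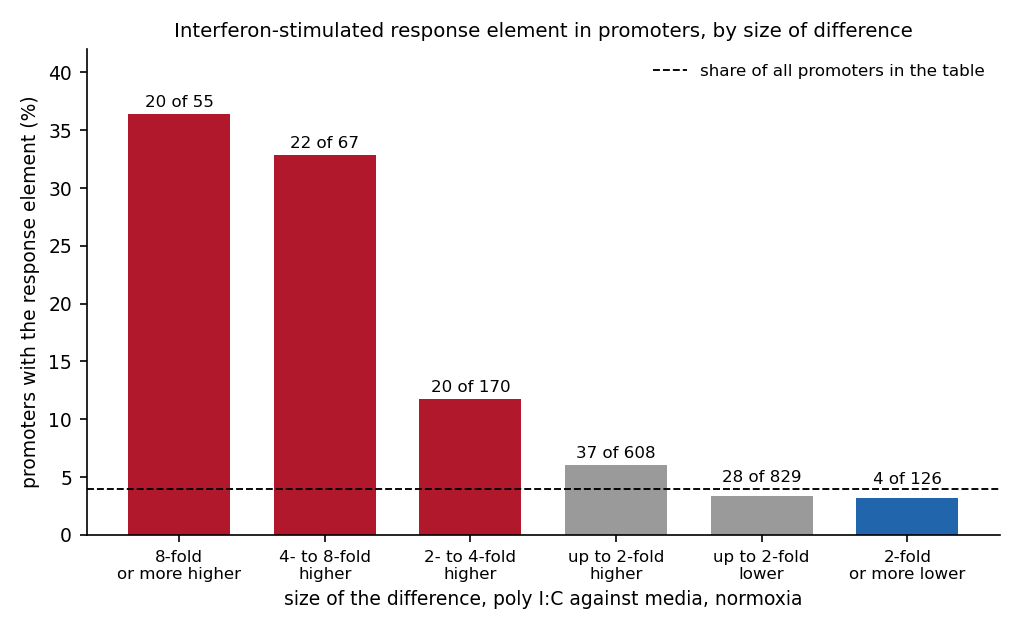
Share of promoters that hold GAAA, any 2 bases and GAAA on either strand, in percent (vertical axis), for genes grouped by the size of the difference between poly I:C and media in normoxia (horizontal axis), with the share over all 27025 promoters as a dashed line. The bars stand at 36.4% for genes higher by 8-fold or more and at 3.17% for lower genes, against 3.99% for all promoters.

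The following promoter stretches of 100 bases, read on the strand of each gene from RefSeq (GRCm38.p6), show the element in 4 genes outside the antiviral families, with the element in capitals. They belong to Lgals9, which encodes the lectin galectin-9 (chr11:78984925-78985024, minus strand), Serpinb9, an inhibitor of granzyme B (chr13:33004441-33004540, plus strand), Fcgr4, an IgG receptor (chr1:171018808-171018907, plus strand), and Slamf8, a SLAM family receptor (chr1:172590569-172590668, minus strand). In Fcgr4 the capitals read as spelled above, and in Lgals9, Serpinb9 and Slamf8 they are the reverse complement, TTTC on either side of any 2 bases.
Lgals9: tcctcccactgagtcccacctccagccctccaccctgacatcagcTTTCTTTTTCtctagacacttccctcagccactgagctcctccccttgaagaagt
Serpinb9: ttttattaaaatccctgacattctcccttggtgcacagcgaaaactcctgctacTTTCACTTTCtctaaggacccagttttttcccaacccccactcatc
Fcgr4: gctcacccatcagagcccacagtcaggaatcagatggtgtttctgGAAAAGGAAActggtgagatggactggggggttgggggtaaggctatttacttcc
Slamf8: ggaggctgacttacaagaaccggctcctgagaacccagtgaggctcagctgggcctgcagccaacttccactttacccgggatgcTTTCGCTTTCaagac

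Other motifs stood in the higher genes at shares closer to those of all promoters. A gamma-activated site (TTCNNNGAA, bound by STAT dimers) stood in 10.3% of the promoters of higher genes and in 9.55% of all promoters, and a kappa B site (GGG, any 2 bases and TTTCC, bound by NF-kB) in 2.74% and 1.89%. Among lower genes, 54.0% held a CCAAT box (CCAAT, bound by NF-Y) against 41.1% of all promoters, and 6.35% held an E2F site (TTTNGCGC) against 1.57%. In genes that were neither, these shares were 42.5% and 2.64%. The E2F letters stood in 8 lower genes, among them the related histone genes H2ac10, H2ac22, H2ac24 and H2bc7. A cell cycle homology region (TTTGAA) stood in 19.0% of promoters of lower genes, 17.5% of higher, 11.1% of neither and 20.2% of all. All 6 promoters of the cholesterol list that were in the table held CCAAT, as did 16 of 20 histone promoters, and 4 of those 20 held the E2F letters. The sterol regulatory element (TCACNCCAC) stood in 1 of the 6 cholesterol promoters, in 3.17% of the promoters of lower genes, in 2.09% of those of genes that were neither and in 1.44% of all promoters. The amino acid response element (TGATGNAA) stood in 5.48% of the promoters of higher genes and in 4.51% of all promoters. Stretches of 100 bases are shown for the cholesterol gene Hmgcs1 (chr13:119690168-119690267, plus strand, sterol regulatory element in capitals), the histone gene H2bc7 (chr13:23574346-23574445, minus strand, E2F letters in capitals) and the asparagine synthetase gene Asns (chr6:7693210-7693309, minus strand, amino acid response element in capitals), whose values follow under their functions. In H2bc7 the capitals are the reverse complement of the E2F letters, and in Hmgcs1 and Asns they read as spelled.
Hmgcs1: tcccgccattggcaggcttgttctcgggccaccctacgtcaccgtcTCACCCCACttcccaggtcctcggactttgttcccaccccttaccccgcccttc
H2bc7: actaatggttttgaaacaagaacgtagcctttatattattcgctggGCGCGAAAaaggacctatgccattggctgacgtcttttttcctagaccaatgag
Asns: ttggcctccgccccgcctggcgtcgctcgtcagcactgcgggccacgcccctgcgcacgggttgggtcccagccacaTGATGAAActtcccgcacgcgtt

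The functions fell into lists with wide differences between them. Of 73 lists with 3 or more genes above the floor, 14 had a median at or above 2-fold higher. Without a floor, when the dim members were counted too, 2 did. The direction of members that reached the floor on only 1 of the arrays is partly fixed by the rule. Low medians were those of cholesterol synthesis (-1.74) and of mitochondrially encoded transcripts (-1.54). That of DNA replication (-2.44) rested on 3 genes, 2 of which passed the floor on the media array only, and it was -0.84 without a floor, -1.36 with the mean of probe sets and -0.29 with a floor 2 times as high.

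**Figure D3:**
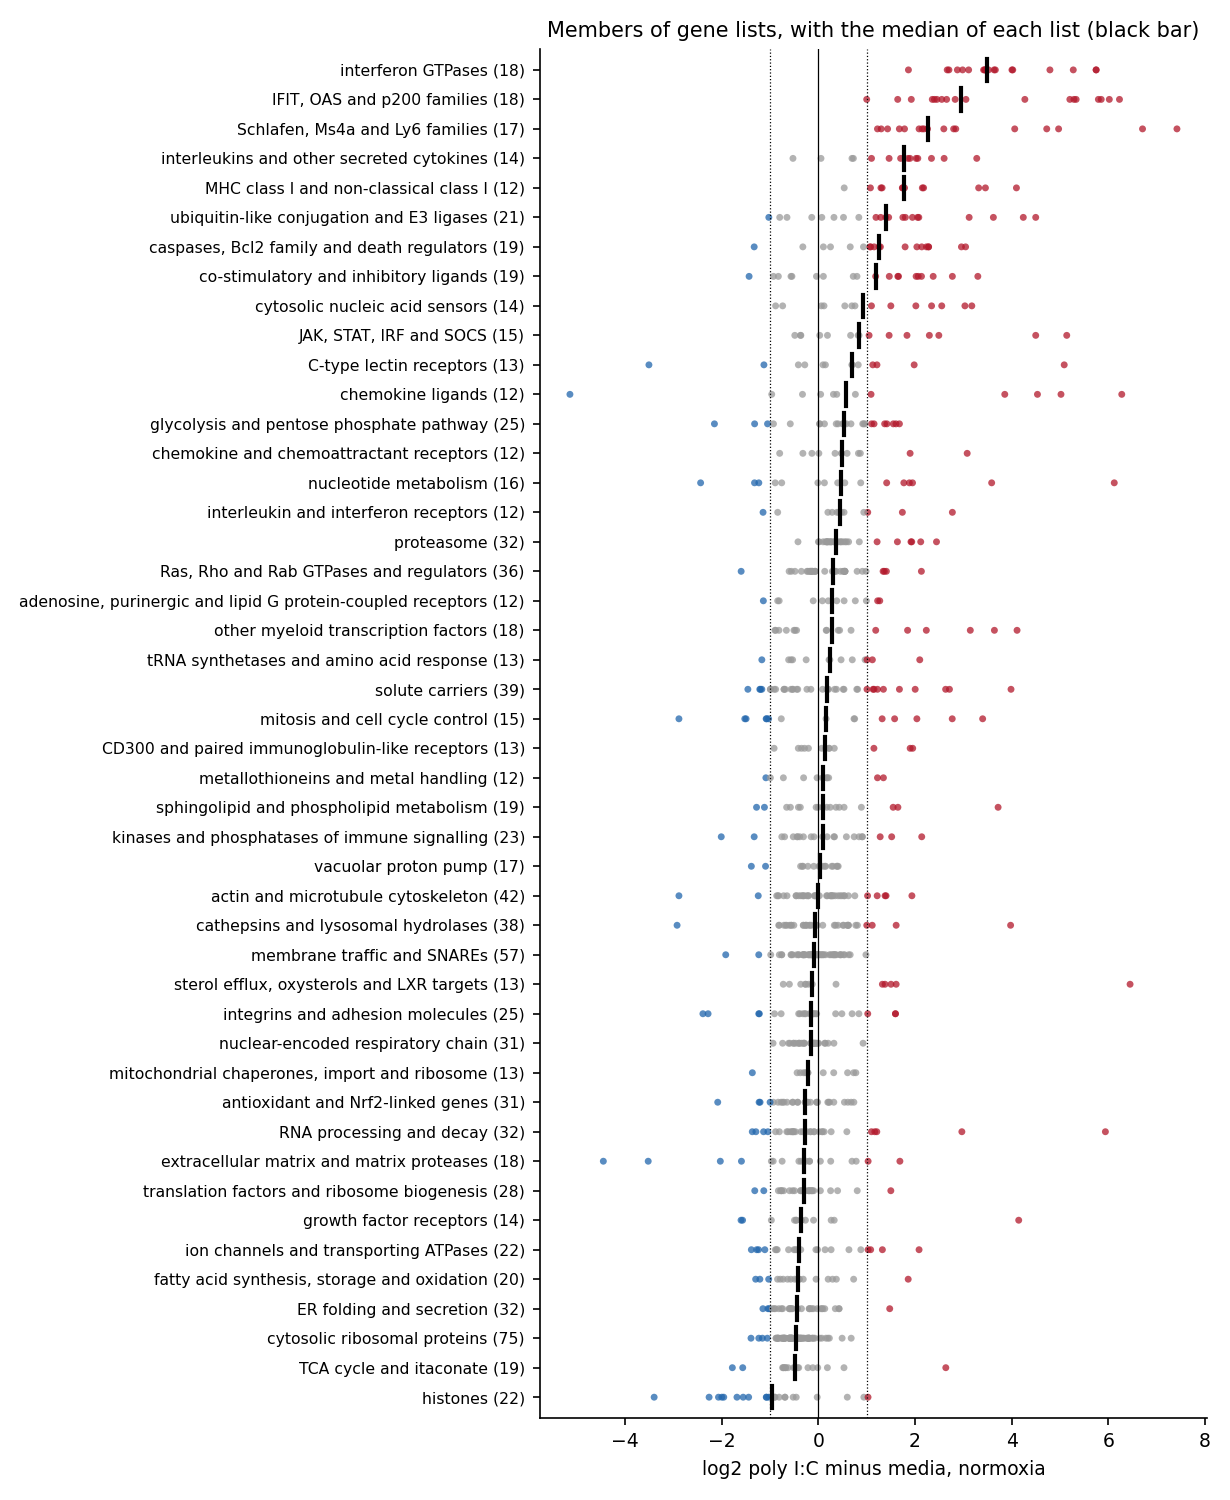
Log2 difference between poly I:C and media in normoxia (horizontal axis) for every member above the floor (points) and the median (black bar) of the 46 lists with 12 or more such members, 1 array each, with dotted lines at 2-fold. All 53 members above the floor of the 3 interferon families are higher, 11 of 22 histone genes are lower, and 55 of 57 membrane traffic genes lie within 2-fold. The direction of members that reached the floor on 1 array only is partly fixed by the rule.

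Genes that sense and relay the signal were higher in part. Of 14 cytosolic nucleic acid sensors and their partners 7 were higher, with a median of 0.93. Of the 14, 8 reached 64 with poly I:C only and 1 in media only, which partly fixes their direction. Zbp1, a sensor of Z-form nucleic acid, was at 159 with poly I:C and 17.6 in media (3.18). Ifih1, which encodes MDA5, the cytosolic receptor for long double-stranded RNA such as poly I:C, was at 284 with poly I:C and 48.4 in media (2.55), and Eif2ak2, the kinase PKR that halts translation on double-stranded RNA, was at 95.1 with poly I:C and 33.6 in media (1.499). The helicases Dhx9 (59.5 against 110.0, -0.89) and Dhx15 (119.9 against 200.2, -0.74) and the kinase Ikbke (139 against 134, 0.06) were not among them. On the Toll-like receptor side 4 of 10 genes were higher. These were the adaptor Myd88 (205 against 83.6, 1.29), the LPS co-receptor Cd14 (188 against 88.5, 1.08), and the paired genes Cd180 (395 against 169, 1.22) and Ly86 (317 against 103, 1.61), whose products RP105 and MD-1 form a complex that modulates LPS signalling in B cells. Tlr7 was at 86.9 with poly I:C and 44.9 in media, just short of 2-fold (0.95).

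Genes of interferon signalling were higher in part, and most NF-kB genes were not. In the list of JAK, STAT, IRF and SOCS genes 7 of 15 were higher. Irf7, the factor that amplifies interferon production, was at 796 with poly I:C and 22.5 in media (5.14), and Stat2 was at 420.1 with poly I:C and 74.6 in media (2.49). Stat3 (0.82), Irf5 (0.67) and Irf2 (0.03) stayed within 2-fold. Irf8, a factor of dendritic cell and monocyte development, was at 120.1 with poly I:C and 43.5 in media in normoxia (1.46) and at 57.4 with poly I:C and 63.4 in media in hypoxia (-0.14). Of 11 NF-kB pathway genes 1 was higher, the feedback deubiquitinase Tnfaip3 (135 against 59.3, 1.19), although 6 of the 10 promoters of this list in the table held the kappa B letters. Rel was at 175 with poly I:C and 99.1 in media (0.82) and Nfkbia, the inhibitor IkB alpha, at 130.0 with poly I:C and 89.0 in media (0.55). In the hypoxia pair, where 16.4% of these 2451 genes were higher and 9.30% lower, 4 of the 11 were higher.

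Chromatin readers of the speckled protein family were higher. Sp140 was at 226 with poly I:C and 25.5 in media (3.14), Sp110 at 166 with poly I:C and 35.2 in media (2.23) and Sp100, the founding member that forms nuclear bodies with Pml, at 236 with poly I:C and 65.5 in media (1.85). Pml itself was at 86.1 with poly I:C and 32.2 in media (1.42) and Daxx, another nuclear body protein, at 127 with poly I:C and 16.3 in media (2.96). The PHD finger genes Phf11a (238 against 13.8, 4.11) and Phf11d (164 against 13.1, 3.64) are close relatives that the array cannot be assumed to read apart. Of the 18 myeloid transcription factors that include the Sp100 and Phf11 genes 6 were higher and none lower. Spi1, which encodes PU.1, was at 142 with poly I:C and 107 in media (0.41), and Zeb2 at 77.5 with poly I:C and 143 in media (-0.88). Mxd1, an antagonist of Myc, was at 114 with poly I:C and 23.5 in media (2.27).

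Of 10 MAP kinases, dual-specificity phosphatases and related regulators 4 were higher and 1 lower, with a median of 0.13. Of the 10, 4 reached 64 with poly I:C only and 3 in media only, which partly fixes their direction. The higher genes were the kinase Map2k1 (148 against 59.6, 1.31) and the following negative regulators. Dusp1, the phosphatase that inactivates p38 and JNK, was at 192 with poly I:C and 33.7 in media (2.51), Dusp6, which acts on ERK, at 140.0 with poly I:C and 39.99 in media (1.81), and Spred1, an inhibitor of Ras signalling, at 93.0 with poly I:C and 43.9 in media (1.08). Dusp3 was lower (31.6 against 65.1, -1.04). Among 23 kinases and phosphatases of immune signalling 3 were higher, 6 after centring on the reference genes, and 2 were lower. Prkcb, protein kinase C beta, was at 56.3 with poly I:C and 227 in media (-2.01) and Dapk1, a death-associated kinase, at 46.7 with poly I:C and 117 in media (-1.33). Small GTPases were mostly level, as most genes described were, with 4 of 36 higher and 1 lower, beside 15.2% and 7.47% over all genes. The exceptions were Rgs1, which dampens chemokine receptor signalling (164 against 37.4, 2.13), Rasgrp1 (86.4 against 32.6, 1.41), Rab32 (115 against 44.5, 1.37), Rhoc (103 against 40.9, 1.34) and, lower, the Ras effector Rassf4 (112 against 339, -1.60).

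Among the antiviral effectors all 53 genes above the floor in the 3 interferon family lists were higher. Of the 18 interferon GTPases 17 reached 64 with poly I:C only, as did 14 of 18 IFIT, OAS and p200 genes. In the Schlafen, Ms4a and Ly6 families 8 of 17 did. The rule therefore partly fixes their direction, and the array holds 19, 27 and 46 members of the 3 lists. The interferon GTPases, which attack pathogen vacuoles and viral capsids, had a median of 3.48 over 18 genes, the IFIT, OAS and p200 families a median of 2.94 over 18, and the Schlafen, Ms4a and Ly6 families a median of 2.26 over 17. Members of these families are near copies of one another, for example Oas1a and Oas1g, Ifit3 and Ifit3b or the Ifi200 genes, and their values cannot be taken as separate. The spread within a family was wide. In the Schlafen family Slfn4 was at 1307 with poly I:C and 7.61 in media (7.42), Slfn1 at 461 with poly I:C and 17.4 in media (4.73) and Slfn2, which T cells need to stay quiescent, at 789 with poly I:C and 292 in media (1.43). Ly6e was already bright in media (1573 with poly I:C and 674 in media, 1.22). Ms4a4a was higher in normoxia (196 against 79.4, 1.30), whereas the hypoxia pair had 101 with poly I:C and 139 in media (-0.46).

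Some RNA-directed effectors were among the higher genes. Isg20, an exonuclease that degrades single-stranded RNA, was at 271 with poly I:C and 4.40 in media (5.94), Helz2 at 108 with poly I:C and 13.8 in media (2.97), and Pnpt1, the mitochondrial polynucleotide phosphorylase, at 79.7 with poly I:C and 34.5 in media (1.21). Adar, which edits adenosine to inosine in double-stranded RNA, was at 107 with poly I:C and 49.8 in media (1.10). These genes and Rnaset2a were the higher members of the list of RNA processing and decay: of 32 genes 5 were higher and 4 lower, with a median of -0.28. Over all genes 15.2% were higher and 7.47% lower. The lower count was 2 after centring on the reference genes. A pseudocount of 16 added to both intensities left 3 higher and 3 lower, with Adar (0.90) and Pnpt1 (0.92) short of 2-fold. The lower genes were Hnrnpa1 (159 against 411, -1.37), Sfpq (62.4 against 153, -1.29), Ddx3x (163 against 358, -1.14) and the splicing regulator Mbnl1 (241 against 498, -1.05).

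Genes of ubiquitin-like modification were higher in large part. Of 21 genes of conjugation and E3 ligases 13 were higher and 1 lower, with a median of 1.40. Of the 21, 11 reached 64 with poly I:C only and 1 in media only, which partly fixes their direction. The ISG15 system was represented by the modifier Isg15 (118 against 6.25, 4.24), its conjugating enzyme Ube2l6 (229.9 against 18.7, 3.62), the ligase Herc6, which acts as the ISG15 ligase in mouse (374 against 43.0, 3.12), and the protease Usp18, which removes ISG15 (629.6 against 27.8, 4.50). Beyond it, Rnf31, the catalytic subunit of the linear ubiquitin assembly complex, was at 74.1 with poly I:C and 21.3 in media (1.801), Peli1 at 155 with poly I:C and 37.5 in media (2.05), Rnf114 at 329 with poly I:C and 97.9 in media (1.75) and the giant ligase Rnf213 at 578 with poly I:C and 211 in media (1.45). The broadly used ubiquitin gene Ubb (1052 against 841, 0.32) stayed within 2-fold, as did the conjugating enzyme Ube2d3 (-0.14). The lower gene was Znrf2 (63.2 against 129, -1.03).

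All 4 PARP family genes above the floor were higher, Parp11 at 81.9 with poly I:C and 13.2 in media (2.63), Parp12 at 222 with poly I:C and 47.8 in media (2.22), Parp14 at 343 with poly I:C and 110.5 in media (1.64) and Parp9 at 128.5 with poly I:C and 51.8 in media (1.31). The array holds 11 PARP genes, and 3 of these 4 reached 64 with poly I:C only, which partly fixes their direction. Dtx3l, the ligase that pairs with Parp9, was at 136 with poly I:C and 32.2 in media (2.08). Of 8 TRIM genes 6 were higher, and 6 of the 8 reached 64 with poly I:C only. Trim21, a cytosolic receptor for antibody-coated virus, was at 96.2 with poly I:C and 15.9 in media (2.60), and Trim25, a ligase of RIG-I signalling, at 169.8 with poly I:C and 66.4 in media (1.35). In the hypoxia pair Trim25 was at 166 with poly I:C and 125 in media (0.41). Trim12a (0.86) and Trim14 (0.87) were below 2-fold.

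Antigen presentation split by MHC class. Of 12 MHC class I genes 11 were higher, with a median of 1.76, whereas none of 6 class II pathway genes was, with a median of 0.15. Of the 12 class I genes 7 reached 64 with poly I:C only, which partly fixes their direction. All 6 class II genes reached it on both arrays. The classical genes H2-K1 (1495 against 434, 1.78) and H2-D1 (1275 against 511, 1.32) were bright on both arrays. Among the non-classical genes H2-T22 was at 599.9 with poly I:C and 54.6 in media (3.46), and H2-T23, which encodes the Qa-1 ligand of NK receptors, was at 184 with poly I:C and 40.6 in media (2.18). The H2-Q genes are near copies, so the value of H2-Q6 (533 against 31.1, 4.10) may include its neighbours, and 2 probe sets named H2-Q8 disagreed by 2-fold or more. B2m, the light chain, was at 2452 with poly I:C and 1693 in media (0.53), and Cd1d1, which presents lipids to NKT cells, at 152 with poly I:C and 45.7 in media (1.74). In class II, H2-Ab1 was at 818 with poly I:C and 631 in media (0.38) and Cd74, the invariant chain, at 772 with poly I:C and 1000.2 in media (-0.37).

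The proteasome showed the same kind of division within 1 complex. All 5 genes of the immunoproteasome and its PA28 activator were higher, with a median of 1.93, against 1 of 27 other subunits, Psma5 (115 against 49.4, 1.22), whose median was 0.33. The inducible catalytic subunits Psmb9 (269.9 against 49.6, 2.45), Psmb10 (175 against 40.3, 2.12) and Psmb8 (144 against 38.2, 1.92) can be set beside the constitutive subunits that they replace. Those were Psmb6 (175 against 114, 0.62), Psmb7 (125 against 99.6, 0.33) and Psmb5 (89.8 against 69.6, 0.37). Psme1 (382 against 123, 1.64) and Psme2 (252 against 66.1, 1.93) encode the activator.

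**Figure D4:**
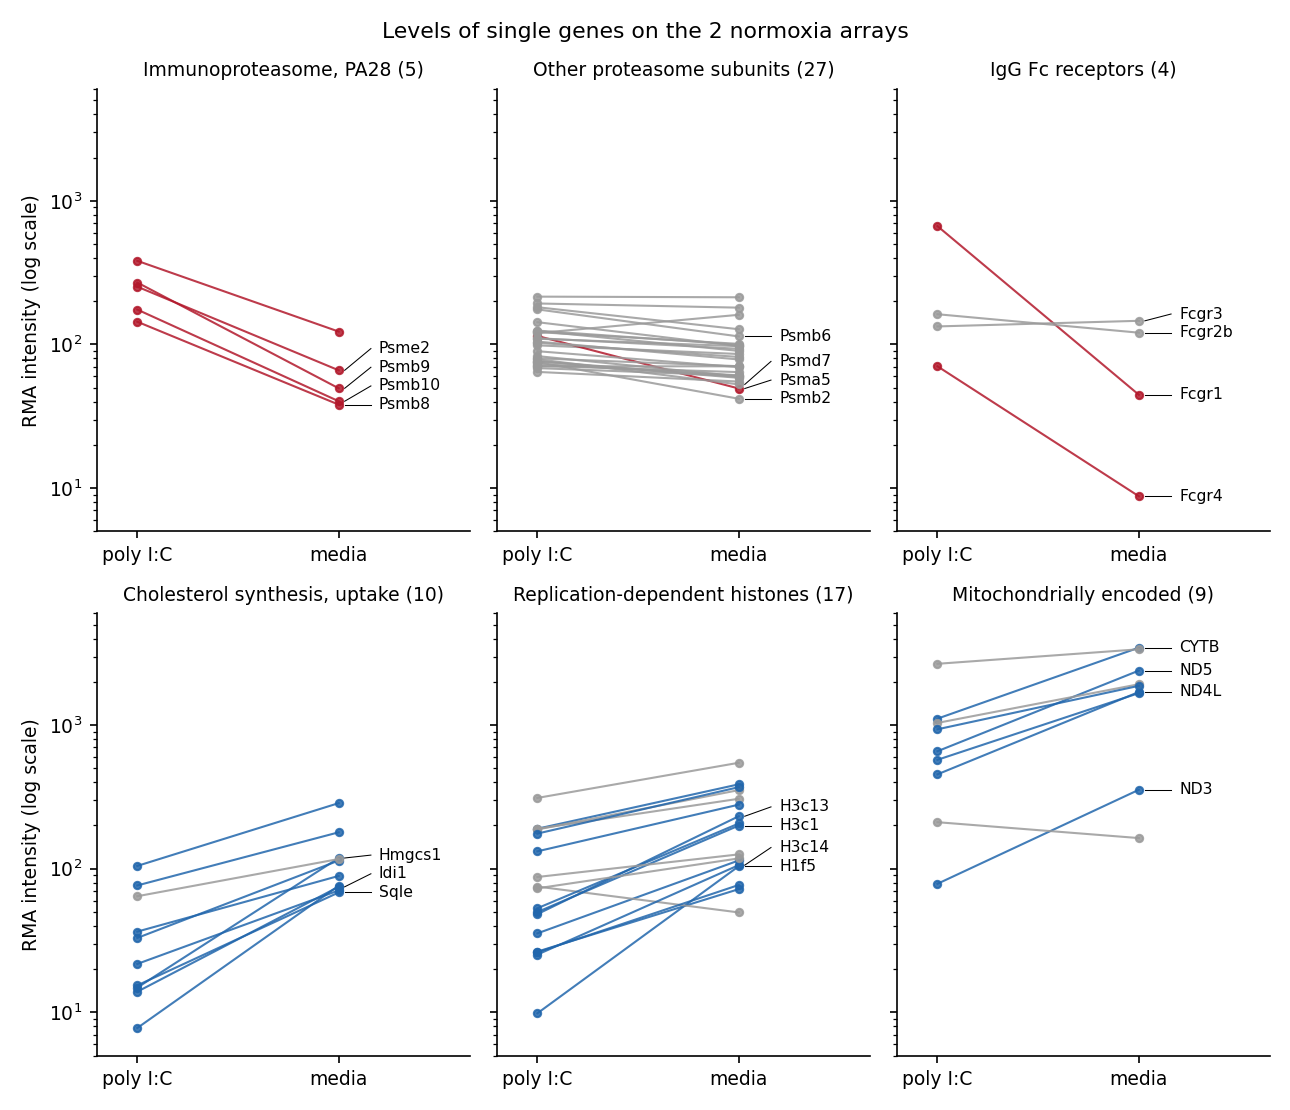
Intensities (vertical axis, log scale) with poly I:C and in media in normoxia, 1 array each, joined per gene, for 6 groups of genes, red being higher, blue lower and grey neither. The 5 immunoproteasome and activator genes stand above their media values while 26 of the 27 other subunits stay within 2-fold, and 9 of 10 cholesterol genes, 11 of 17 replication-dependent histones and 6 of 9 mitochondrially encoded transcripts are lower. Genes entered through either array, so the direction of those that reached the floor on 1 array only is partly fixed.

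Lysosomal genes were mostly level, as most genes described were: of 38 cathepsins and hydrolases 4 were higher and 1 lower, with a median of -0.06. Over all genes 15.2% were higher and 7.47% lower. Cst7, which encodes cystatin F, an inhibitor of cathepsin C, was at 173 with poly I:C and 10.99 in media (3.98), and its target Ctsc was at 1734 with poly I:C and 801 in media (1.11). The sterol carrier Npc2 was at 813 with poly I:C and 266 in media (1.61). Sort1, a receptor that carries proteins to lysosomes, was at 11.6 with poly I:C and 88.0 in media (-2.93), which is within the dim range with poly I:C. Of 17 subunits of the vacuolar proton pump 2 were lower, Atp6v0a1 (86.4 against 226, -1.39) and Atp6v0d2 (169 against 362, -1.09), and the others stayed within 2-fold. In the membrane traffic list 0 of 57 genes were higher and 2 lower, with a median of -0.08. These were Vps13b (27.3 against 103, -1.92) and Vps13c (36.3 against 85.4, -1.23), lipid transfer proteins of one family.

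Secreted signals were higher in part. Of 12 chemokine ligands 5 were higher and 1 lower. The CXCR3 ligands Cxcl9 (122 against 3.75, 5.02), Cxcl10 (1218 against 15.7, 6.28) and Cxcl11 (67.7 against 4.67, 3.86), which draw activated T cells and NK cells, were dim in media. Ccl5 was at 3157 with poly I:C and 136 in media (4.54). The monocyte attractant Ccl2 (127 against 74.5, 0.77), Ccl3 (560.0 against 430.3, 0.38) and Ccl22 (205 against 165, 0.31) did not reach 2-fold, and Ccl6 (801 against 1006, -0.33) and Ccl9 (677 against 656, 0.05) were bright and near level. Cxcl3, a neutrophil attractant, was at 33.7 with poly I:C and 65.8 in media (-0.97), and Ppbp at 3.12 with poly I:C and 110.4 in media (-5.14).

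Of 14 interleukins and other secreted cytokines, 7 of which reached 64 with poly I:C only, 10 were higher, with a median of 1.78. Inflammatory agonists and their natural antagonists were both among them: Il1a was at 136 with poly I:C and 32.6 in media (2.06), Il1b at 147 with poly I:C and 68.5 in media (1.10) and the receptor antagonist Il1rn at 631 with poly I:C and 169 in media (1.90), while Il18bp, which neutralises IL-18, was at 111 with poly I:C and 21.9 in media (2.34). Inhba, the subunit of activin A, was at 274 with poly I:C and 28.2 in media (3.28) and Edn1, the vasoconstrictor endothelin-1, at 78.0 with poly I:C and 12.8 in media (2.60). Il15 (81.0 against 19.9, 2.02) and the receptor chain Il15ra (69.4 against 10.15, 2.77), which presents it to NK and T cells in trans, were both higher. Mif (229 against 70.4, 1.70) and the angiogenic factor Vegfa (75.2 against 27.3, 1.46) were higher in normoxia, whereas in hypoxia Mif was at 595 with poly I:C and 535 in media (0.15) and Vegfa at 204 with poly I:C and 214 in media (-0.07). Igf1 was at 156 with poly I:C and 224 in media (-0.53).

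All 4 TNF family ligands above the floor were higher: Tnfsf10, which encodes the death ligand TRAIL (65.6 against 4.23, 3.95), the CD30 ligand Tnfsf8 (73.0 against 10.3, 2.83), Tnf (190.2 against 52.6, 1.85) and Tnfsf15 (186 against 72.6, 1.36). The array holds 15 such ligands, and 3 of the 4 reached 64 with poly I:C only, which partly fixes their direction. Of 4 receptors 1 was higher, Tnfrsf9, which encodes 4-1BB (98.0 against 18.8, 2.38), and it was level and brighter on both arrays of the hypoxia pair (437 with poly I:C and 436 in media). The TNF receptors Tnfrsf1a (102 against 75.3, 0.44) and Tnfrsf1b (383 against 358, 0.10) stayed within 2-fold.

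Complement and clotting genes gave a few large values among level ones. Cfb, factor B of the alternative pathway, was at 1511 with poly I:C and 383 in media (1.98), and C3, its partner, at 1070.2 with poly I:C and 625 in media (0.78). The C1q chains C1qa (67.1 against 44.6, 0.59), C1qb (145 against 134, 0.11) and C1qc (92.4 against 71.5, 0.37) stayed within 2-fold. Serpinb9, whose promoter is printed above, was at 95.02 with poly I:C and 16.0 in media (2.57), and Serpinb2, plasminogen activator inhibitor 2, at 78.0 with poly I:C and 9.13 in media (3.09). Fgl2, a membrane prothrombinase, was at 205 with poly I:C and 23.2 in media (3.14), and the protein C receptor Procr at 75.2 with poly I:C and 26.4 in media (1.51). Factor X, F10 (384 against 381, 0.01), was level, and factor VII, F7 (167 against 289, -0.79), was below its media value by less than 2-fold.

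Receptors for antigen uptake differed from one another. Among Fc receptors the high-affinity activating receptor Fcgr1 was at 666 with poly I:C and 44.7 in media (3.90) and Fcgr4, whose promoter is also printed, at 70.5 with poly I:C and 8.78 in media (3.005). The inhibitory receptor Fcgr2b (162 against 121, 0.43) and the activating receptor Fcgr3 (134 against 146, -0.13) stayed within 2-fold. Of 13 C-type lectin receptors 4 were higher and 2 lower. The mannose receptor Mrc1 was at 11.5 with poly I:C and 131 in media (-3.51), while Clec4e, which encodes the mycobacterial glycolipid receptor Mincle, was at 574 with poly I:C and 145 in media (1.98) and the activation marker Cd69 at 201 with poly I:C and 5.91 in media (5.09). The fungal receptors Clec7a (445 against 417, 0.10) and Clec4n (1308 against 1745, -0.42), known as Dectin-1 and Dectin-2, were bright on both arrays. Of 7 scavenger receptors Cd36 (389.7 against 959, -1.30) and Marco (24.5 against 82.3, -1.75) were lower, whereas Msr1 (329.6 against 304, 0.12) and Cd68 (940.3 against 777, 0.27) were level. Siglec1, the sialic acid receptor CD169, was at 175 with poly I:C and 21.0 in media (3.06).

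Paired immunoglobulin-like receptors were largely level, with 3 of 13 higher, beside 15.2% over all genes. Sirpb1a was at 746 with poly I:C and 193 in media (1.95) and Cd300lf at 177 with poly I:C and 47.5 in media (1.90), and both differed less in hypoxia (0.47 and 0.64). The inhibitory receptors Pirb (158 against 193, -0.29), Lilrb4a (899.5 against 769.7, 0.22) and Pilra (312 against 298, 0.07) stayed close to their media values. Trem2, a lipid-sensing receptor, was at 36.3 with poly I:C and 68.5 in media (-0.92).

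Of 19 co-stimulatory and inhibitory ligands 10 were higher and 1 lower. Cd86, a ligand of CD28, was at 236 with poly I:C and 24.0 in media (3.30), and the inhibitory ligand Cd274, PD-L1, was at 579 with poly I:C and 184 in media (1.66). Lgals9, whose promoter is shown above, was at 472 with poly I:C and 113 in media (2.07), Cd47, the signal against phagocytosis, at 376 with poly I:C and 165 in media (1.19), and its receptor Sirpa at 366 with poly I:C and 535 in media (-0.55). The SLAM family was split. Slamf9 (296 against 57.0, 2.38), Slamf8 (86.2 against 27.6, 1.64) and Slamf7 (290.2 against 105, 1.47) were higher, whereas Ly9 (116 against 67.0, 0.80), Cd84 (293 against 434, -0.57) and Cd48 (46.3 against 82.3, -0.83) were within 2-fold. Vsir, which encodes the checkpoint ligand VISTA, was the lower gene (25.01 against 67.6, -1.44).

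Of 12 interleukin and interferon receptors 3 were higher and 1 lower, and of 12 chemokine and chemoattractant receptors 2 were higher, or 4 after centring on the reference genes. These shares lay near those over all genes (15.2% higher and 7.47% lower). The interferon gamma receptor chain Ifngr1 was at 66.0 with poly I:C and 146 in media (-1.15), while the type I receptor chains Ifnar1 (118 against 103, 0.20) and Ifnar2 (89.1 against 73.1, 0.29) were level. Il13ra1 was at 142 with poly I:C and 42.7 in media (1.74). The homing receptor Ccr7 was at 223 with poly I:C and 59.9 in media (1.90) and the scavenging receptor Ccrl2 at 196 with poly I:C and 23.1 in media (3.08), whereas the inflammatory receptor Ccr2 was at 168 with poly I:C and 293 in media (-0.80). Among growth factor receptors Kdr, the VEGF receptor 2, was at 64.1 with poly I:C and 3.62 in media (4.15), barely above the floor, and its co-receptor Nrp1 was at 47.1 with poly I:C and 139.8 in media (-1.57). The M-CSF receptor Csf1r was at 448 with poly I:C and 880.5 in media (-0.97) and the GM-CSF receptor chain Csf2rb at 441 with poly I:C and 621 in media (-0.50).

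Adhesion and matrix genes included large decreases. Fn1, which encodes fibronectin, was at 60.8 with poly I:C and 1331 in media (-4.45). Itga5, whose integrin binds fibronectin, was at 86.5 with poly I:C and 28.6 in media (1.59), in the opposite direction. Of 18 matrix genes 2 were higher and 4 lower, the lower genes being Fn1, Plxdc2 (18.7 against 215, -3.52), the collagenase Mmp8 (108 against 441, -2.03) and the inhibitor Timp2 (25.4 against 76.7, -1.59). Mmp12, the macrophage elastase, was bright on both arrays (2378 against 3146, -0.40). Of 25 adhesion genes 3 were higher and 4 lower: the collagen-binding integrin Itga1 was at 14.3 with poly I:C and 74.9 in media (-2.39), the embigin gene Emb at 105 with poly I:C and 509.6 in media (-2.28), Icam1 at 77.7 with poly I:C and 38.3 in media (1.02) and the junction molecule F11r at 93.2 with poly I:C and 30.9 in media (1.60). The beta-2 integrin chains Itgb2 (-0.38), Itgam (-0.77) and Itgax (-0.91) all lay below 0 without reaching 2-fold. In the guidance list Plxnc1 (63.2 against 149, -1.24), Plxnd1 (86.9 against 179, -1.04) and Nrp1 were the 3 lower genes of 8, and no gene was higher.

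Of 42 cytoskeleton genes 5 were higher and 2 lower, with a median of -0.01. These shares lay near those over all genes (15.2% higher and 7.47% lower). Fscn1, the actin-bundling protein fascin that marks mature dendritic cells, was at 122 with poly I:C and 31.8 in media (1.94) in normoxia and at 18.8 with poly I:C and 13.5 in media (0.47) in hypoxia. Marcksl1 was at 420.2 with poly I:C and 159 in media (1.40). Actb (4255 against 3549, 0.26), Vim (1533 against 1241, 0.31) and Cfl1 (461 against 455, 0.02) changed little. The lower genes were Stmn1, which destabilises microtubules in dividing cells (11.9 against 88.4, -2.89), and the motor Myo5a (53.7 against 127, -1.25).

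Both promoters and inhibitors of cell death were among the higher genes. Of 19 genes 13 were higher and 1 lower, with a median of 1.26. The array holds 57 genes of this list. Of the 19, 12 reached 64 with poly I:C only and 2 in media only, which partly fixes their direction. Executors and promoters of death included Mlkl, the pore-forming protein of necroptosis (169.6 against 36.0, 2.24), Casp4 (caspase-11, the cytosolic LPS sensor; 93.5 against 19.2, 2.28), Casp1 (152 against 62.6, 1.28) and Bak1 (71.5 against 32.1, 1.15). Among inhibitors, Cflar, which encodes the caspase-8 inhibitor cFLIP, was at 205 with poly I:C and 59.2 in media (1.795) and Bcl2a1b at 266 with poly I:C and 127 in media (1.07), a value that may include its near copies. Mcl1 (779 against 655, 0.25) and Apaf1 (92.5 against 86.1, 0.10) were level.

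Of 15 genes of mitosis and cell cycle control 5 were higher and 6 lower, or 3 lower after centring on the reference genes. The cyclins Ccnd2 (405 against 38.3, 3.40) and Ccnd1 (93.5 against 13.7, 2.77) were higher together with the inhibitor Cdkn1a, p21 (252 against 84.4, 1.58), and the stress gene Gadd45b (108 against 26.3, 2.04). Several genes used in S phase and mitosis were among the lower ones. Rrm1, the large subunit of ribonucleotide reductase, was at 13.8 with poly I:C and 74.9 in media (-2.44), Pclaf, a PCNA-binding factor, at 10.3 with poly I:C and 78.5 in media (-2.92), Kpna2 at 28.0 with poly I:C and 80.5 in media (-1.52) and the condensin subunit Smc4 at 25.1 with poly I:C and 70.8 in media (-1.50). These 4 passed the floor on the media array only, which partly fixes their direction. In hypoxia Pclaf was at 5.01 with poly I:C and 7.39 in media (-0.56), Rrm1 at 4.91 with poly I:C and 15.1 in media (-1.62), Kpna2 at 10.4 with poly I:C and 15.3 in media (-0.55) and Smc4 at 37.5 with poly I:C and 72.4 in media (-0.95). Pcna itself was at 213 with poly I:C and 259.8 in media (-0.29), and Cdk4 at 70.6 with poly I:C and 120.3 in media (-0.77).

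Of 17 replication-dependent histone genes, which are transcribed in S phase, 11 were lower and none higher, with a median of -1.08, and 8 were lower after centring on the reference genes. The array holds 45 such genes. Of all 22 histone genes above the floor 8 reached 64 in media only and 2 with poly I:C only. H1f5, H3c13 and H2bc7 passed in media only, which partly fixes their direction. The hypoxia arrays played no part in the floor. H1f5 was at 9.86 with poly I:C and 104 in media (-3.40), H3c13 at 48.3 with poly I:C and 232 in media (-2.26), H2bc7, whose promoter is shown above, at 26.2 with poly I:C and 77.1 in media (-1.56) and H2ac10 at 189.9 with poly I:C and 387 in media (-1.03). The median level of the 17 was 73.1 with poly I:C and 199.7 in media. In the hypoxia pair it was 87.9 with poly I:C and 68.8 in media, and none of the 17 was called in either direction (median 0.28). Of the 4 arrays, the normoxia media array was the one with the high level. Clustered histone genes are near copies, so the 17 are not independent readings. Among 5 replacement histones 1 was higher, H3f3b (599 against 294, 1.03), and none lower. H2az1 was at 127.8 with poly I:C and 238 in media (-0.90).

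Of 30 genes of cholesterol synthesis and uptake on the array 10 were above the floor, of which 9 were lower and none higher, with a median of -1.74. Of the 10, 7 passed on the media array only, which partly fixes their direction, and without a floor the median of the list was -1.23. The enzymes among them included Hmgcs1 at the entry of the pathway (14.9 against 119, -3.00), the isomerase Idi1 (13.9 against 74.9, -2.43) and the squalene epoxidase Sqle (15.4 against 68.4, -2.15). Srebf2, the master regulator SREBP-2, was at 21.8 with poly I:C and 70.6 in media (-1.70). Hmgcs1, Idi1 and Sqle read under 16 with poly I:C, so their folds are uncertain. Ch25h, which makes 25-hydroxycholesterol, an oxysterol known to restrain SREBP-2 processing, was at 406 with poly I:C and 4.64 in media (6.45). In hypoxia 4 of the 10 were lower, with a median of -0.86, and Idi1 was at 18.5 with poly I:C and 21.8 in media there (-0.24).

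The sterol efflux list held higher and level genes. Abcg1 was at 353 with poly I:C and 141 in media (1.32) and the LXR target Mylip, a ubiquitin ligase, at 69.4 with poly I:C and 26.7 in media (1.38), whereas the LXR target Abca1 was at 123 with poly I:C and 159 in media (-0.37) and Apoe at 106 with poly I:C and 116 in media (-0.13). In hypoxia neither Abcg1 (0.03) nor Mylip (-0.59) was higher. Among 20 fatty acid genes 1 was higher, Acsl1, which activates long-chain fatty acids (601 against 166, 1.86), and 3 were lower, Cd36, the desaturase Fads1 (39.5 against 91.5, -1.21) and the oxidation enzyme Acadm (39.9 against 81.5, -1.03). In the eicosanoid pathway the inducible cyclooxygenase Ptgs2 was at 78.7 with poly I:C and 4.33 in media (4.18) and the constitutive Ptgs1 at 21.3 with poly I:C and 82.3 in media (-1.95). Thromboxane synthase Tbxas1 (90.3 against 199, -1.14) and the epoxide hydrolase Ephx1 (11.2 against 70.8, -2.66) were lower.

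In arginine metabolism 4 of 8 genes were higher. Nos2, the inducible nitric oxide synthase, was at 72.4 with poly I:C and 3.56 in media (4.35), and the arginine transporter Slc7a2 at 540.0 with poly I:C and 82.3 in media (2.71). Its difference did not recur in hypoxia, where it was at 583 with poly I:C and 832 in media (-0.51). Acod1, which makes the antimicrobial metabolite itaconate from a tricarboxylic acid cycle intermediate, was at 1312 with poly I:C and 211 in media (2.64). The enzymes of the cycle itself all lay below 0: none of 9 was called, and their median was -0.63, with Cs at 65.8 with poly I:C and 108 in media (-0.72) and Sdha at 168 with poly I:C and 280.4 in media (-0.74). The cytosolic isocitrate dehydrogenase Idh1 was at 182 with poly I:C and 627 in media (-1.78) and glutamine synthetase Glul at 39.4 with poly I:C and 117 in media (-1.57).

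Of 16 glycolytic enzymes 5 were higher, or 8 after centring on the reference genes, and 1 was lower, with a median of 0.80. Triose phosphate isomerase Tpi1 (502 against 165, 1.61), hexokinases Hk3 (199 against 74.4, 1.42) and Hk1 (69.8 against 32.6, 1.10) and phosphofructokinase Pfkl (83.2 against 32.1, 1.37) were higher, as were the glucose transporter Slc2a1 (340.2 against 153, 1.15) and the lactate exporter Slc16a3 (209 against 65.2, 1.68). Aldoc was lower (14.4 against 64.2, -2.15). Of 4 pentose phosphate enzymes 1 was lower, Taldo1 (39.6 against 98.9, -1.32), with Tkt at 113 with poly I:C and 216 in media (-0.93) and the entry enzyme G6pdx level (421 against 414, 0.02). The hypoxia pair had a median of 0.12 over the 16 enzymes, and Slc2a1 was at 668 with poly I:C and 890.1 in media there (-0.41).

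Genes regulated by HIF, the oxygen-sensing factor, were among the higher genes in normoxia. Of 35 HIF targets and oxygen-sensing genes on the array 9 were above the floor, 5 of them through the normoxia poly I:C array only. Of the 9, 7 were higher, with a median of 1.17, against 2 of 9 in the hypoxia pair (-0.07). The floor used the normoxia arrays only, which favours a higher count there, so the 2 pairs are not on equal terms. The prolyl hydroxylase of collagen P4ha1 was at 161 with poly I:C and 53.2 in media (1.60), the oxidase Ero1a at 133 with poly I:C and 47.8 in media (1.48) and the mitophagy receptor Bnip3 at 73.0 with poly I:C and 34.3 in media (1.09). In hypoxia Ero1a was at 820.2 with poly I:C and 863 in media (-0.07) and Bnip3 at 265 with poly I:C and 335 in media (-0.34), with media levels several times those of normoxia. Hif1a was at 332 with poly I:C and 277 in media (0.26).

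Of 9 transcripts encoded in the mitochondrial genome 6 were lower, or 5 after centring on the reference genes, and none higher. These 6, for subunits of complex I, cytochrome b and ATP synthase, had a median of -1.75. CYTB was at 1108 with poly I:C and 3456 in media (-1.64), ND5 at 657 with poly I:C and 2393 in media (-1.86) and ATP6 at 934 with poly I:C and 1875 in media (-1.005). The cytochrome oxidase transcripts COX1 (2669 against 3367, -0.34) and COX2 (1035 against 1924, -0.89) stayed within 2-fold, and ND6, the transcript of the light strand, was at 211 with poly I:C and 163 in media (0.37). Of the 2 ND3 probe sets the brighter is counted here (78.6 against 354, -2.17). None of 31 nuclear-encoded respiratory chain genes was called, with a median of -0.16. Atp5b was at 419.8 with poly I:C and 533 in media (-0.34), and Cycs, cytochrome c, at 153 with poly I:C and 80.5 in media (0.92).

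Of 31 antioxidant genes 4 were lower and none higher, with a median of -0.27, beside 7.47% lower and 15.2% higher over all genes. After centring on the reference genes 3 were lower and the median was -0.07. A pseudocount of 16 left 2 lower, with Mgst2 short of 2-fold (-0.89). The glutathione enzymes Gclm (37.2 against 158, -2.08) and Gsr (63.98 against 148, -1.21) were lower, as was Mgst2, a microsomal glutathione transferase (28.0 against 65.6, -1.23). Hmox1 (281 against 239, 0.23), Sod2 (261 against 228, 0.19) and Txn1 (1679.5 against 1450.2, 0.21) were level, and the factor Nfe2l2, Nrf2, was at 215 with poly I:C and 352 in media (-0.71). Mt1, a metallothionein, was lower (80.8 against 172, -1.09), whereas the ferritin chains Fth1 (4351 against 4014, 0.12) and Ftl1 (1837 against 1873, -0.03) were level.

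Of 16 genes of nucleotide metabolism 6 were higher and 3 lower. Of the 16, 4 reached 64 with poly I:C only, among them Cmpk2, and 4 in media only, among them Rrm1 and Atic. That partly fixes their direction, and with a pseudocount of 16 Atic fell short of 2-fold (-0.89). Cmpk2, a mitochondrial nucleotide kinase that neighbours Rsad2, was at 493 with poly I:C and 7.06 in media (6.13), the pyrimidine nucleotidase Nt5c3 at 109 with poly I:C and 9.07 in media (3.59), the salvage kinase Dck at 174 with poly I:C and 45.0 in media (1.95) and the purine-degrading Xdh at 216 with poly I:C and 81.0 in media (1.41). The purine nucleoside phosphorylases Pnp (562 against 152, 1.88) and Pnp2 (1724 against 506, 1.77) are near copies. The 3 lower genes, Rrm1, Paics (104 against 261, -1.32) and Atic (27.4 against 64.4, -1.23), act in the making of deoxynucleotides and purines. Samhd1, which breaks down deoxynucleotides, was bright on both arrays (1091 against 747, 0.55).

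Of 39 solute carriers 10 were higher and 4 lower, beside 15.2% higher and 7.47% lower over all genes. A pseudocount of 16 left 8 higher and 1 lower. The largest difference was that of the nucleoside transporter Slc28a2 (116 against 7.29, 3.99). The amino acid transporter Slc7a8 was at 422 with poly I:C and 105 in media (2.00), the lysosomal peptide and histidine transporter Slc15a3 at 641 with poly I:C and 293 in media (1.13) and the copper transporter Slc31a2 at 176 with poly I:C and 75.2 in media (1.22). Lower were the choline transporter Slc44a1 (27.7 against 76.3, -1.46) and the amino acid transporters Slc43a2 (44.9 against 104, -1.21), Slc36a4 (50.3 against 115, -1.20) and Slc1a5 (29.0 against 65.4, -1.17). With the pseudocount Slc43a2 (-0.98), Slc36a4 (-0.99) and Slc1a5 (-0.85) fell short of 2-fold. Among channels and pumps the proton channel Hvcn1 (88.5 against 209, -1.24) was lower, whereas the calcium channel subunit Cacnb3 was higher (84.2 against 19.9, 2.08).

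The translation apparatus was shifted slightly downwards. Of 75 cytosolic ribosomal protein genes 4 were lower, or 2 after centring on the reference genes, and none higher, but 68 had a negative difference, and the median was -0.47 against -0.05 over all genes. Rpl3 was at 102 with poly I:C and 269 in media (-1.40) and Rpl10a at 143 with poly I:C and 337 in media (-1.23). Many ribosomal protein genes have pseudogenes, which the array may also read. Of 28 translation factors and ribosome biogenesis genes 2 were lower, the nucleolar protein Npm1 (157 against 392, -1.32) and Eif3a (115 against 251, -1.13), and 1 was higher, Eif2ak2. In the amino acid response Asns was at 66.5 with poly I:C and 15.5 in media (2.10) and its regulator Atf4 at 65.8 with poly I:C and 30.3 in media (1.12), while the synthetases Gars (0.24) and Nars (0.22) were level.

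Of 32 genes of folding and secretion in the endoplasmic reticulum 3 were lower, 1 was higher, Ero1a, and the median was -0.43. After centring on the reference genes none was lower, and after centring on all genes 1 was. The lower genes were Herpud1 (38.5 against 85.4, -1.15), the signal peptidase subunit Spcs3 (76.9 against 159, -1.05) and the chaperone Hsp90b1 (327 against 664, -1.02). The chaperone Hspa5, BiP, was at 440.4 with poly I:C and 402 in media (0.13). Of 11 heat shock genes 1 was lower, Hspd1, the mitochondrial chaperonin (45.1 against 116, -1.37).

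The hypoxia pair shares no array with the normoxia pair, though all 4 arrays were normalised together. The pairs were compared over the 2451 genes above the floor on the normoxia arrays, of which 16.4% were higher and 9.3% lower in hypoxia. Genes above the floor on the hypoxia arrays only were left out, so the overlap does not cover the whole hypoxia response. Of the 373 genes higher in normoxia 312 were also higher in hypoxia. These were 83.6% of the normoxia list and 77.8% of the 401 among the 2451 that were higher in hypoxia. Of the 183 lower genes 114 were also lower in hypoxia, 62.3% of the normoxia list and 50% of the 228 among the 2451 lower there. None of the 2451 was called in opposite directions. The genes that were higher in normoxia and level in hypoxia included Slc7a2, Tnfrsf9, Mylip, Irf8, Mif, Vegfa and Ero1a, described above. The robust SD of 1 difference, taken from the spread of the gap between the pairs, was 0.308, a figure that contains any real effect of oxygen on the response, and the 2-fold limit is a log2 difference of 1.

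**Figure D5:**
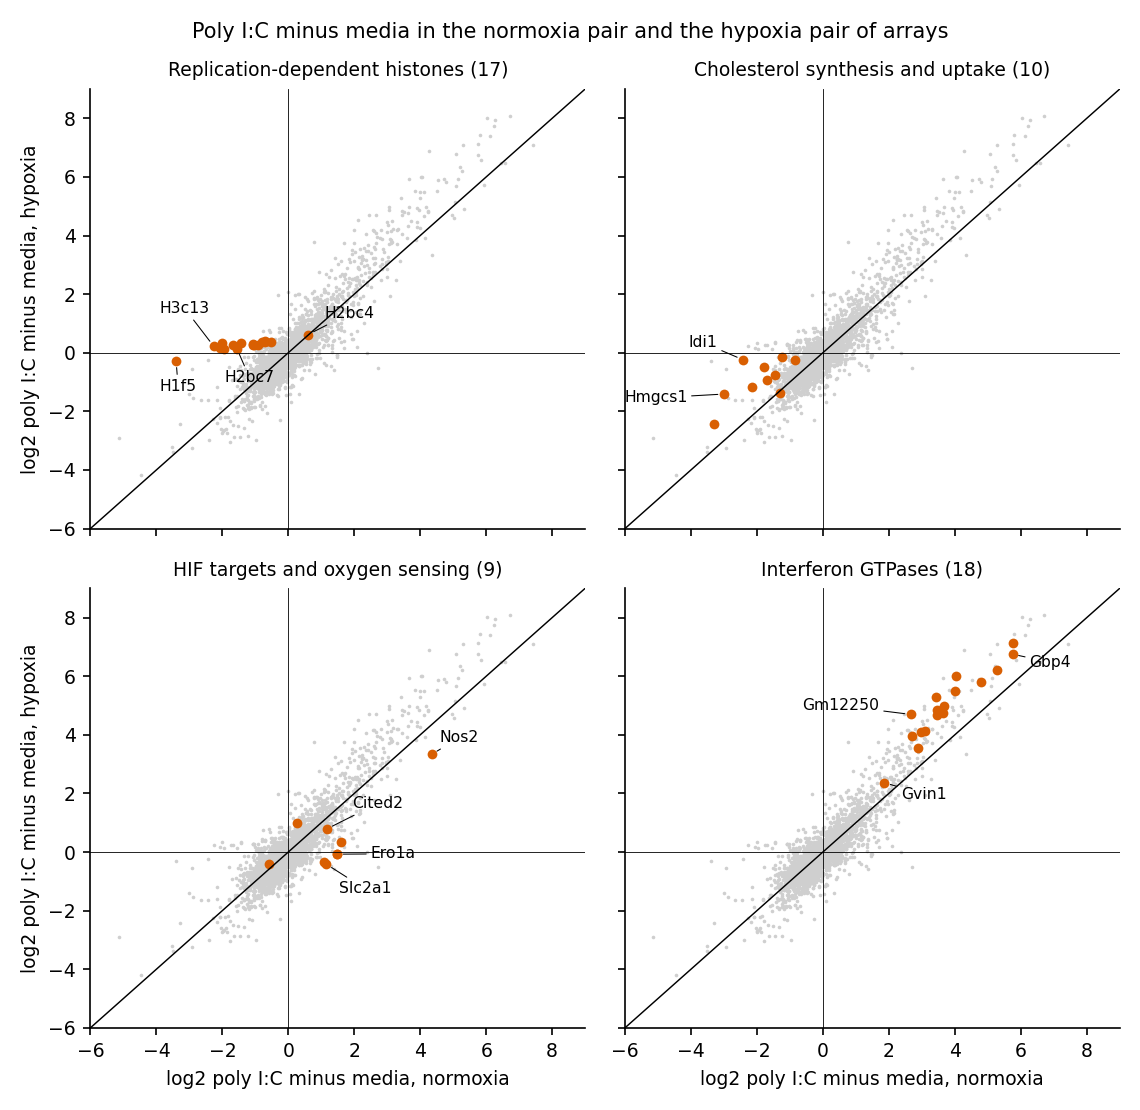
Log2 difference between poly I:C and media in hypoxia (vertical axis) against that in normoxia (horizontal axis) for the 2451 genes (grey), 1 array per condition, with 1 group in orange in each panel and the line of equal differences. The interferon GTPases lie above the line, the replication-dependent histones lie near 0 in hypoxia while 11 of 17 are lower in normoxia, and most HIF targets lie below the line.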

How the data were processed

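The authors deposited linear RMA intensities of 28998 probe sets on 4 arrays. The authors normalised the arrays together with RMA in Affymetrix Expression Console, per the submitters' processing notes and the series' design text, with versions not given in the sources used here. RMA corrects background, equalises the distributions of the arrays and condenses each probe set to 1 value, so a shift shared by most genes would be removed. The labels' protocol mentions nascent RNA beside total RNA, and all samples are labelled total RNA and were treated so. Both deposited tables hold the same intensities (0 values differed), and 4 columns of per-sample Z-scores in one of them were not used.

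Log2 was taken of the intensities, and the difference is poly I:C minus media. Probe sets were named through a RefSeq gene table (GRCm38.p6): 18698 by accession, 2207 by current symbol, 1750 by synonym and 2269 by the symbol of the file, while 163 with several genes and 3911 with none were left out. Of the genes above the floor of 64 on either normoxia array, 372 had several probe sets, of which the brightest on the normoxia arrays was used. A call is a difference of 2-fold or more, and with 1 array per condition there is no test. The number of arrays limits the precision.

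The genes described are the 40 genes of greatest rise and 40 of greatest fall in log2, the 30 of greatest rise and 30 of greatest fall in intensity, and members of 74 functional and 10 marker lists. The members and lists were chosen with earlier results of these data known, patterns of several lists were corrected after seeing the data because they caught genes of other kinds, and the subgroups within lists (replication-dependent histones, immunoproteasome, and similar) were made after the values were seen. Lists share genes, and some of their members are not reported here by name. The steps were tested on simulated data with raised and lowered genes before use. Motif letters were searched in RefSeq promoters of the table provided, matched by gene ID or symbol. The calculations used Python 3.11.15, numpy 2.4.6, pandas 2.3.3, statsmodels 0.14.6 and matplotlib 3.10.9.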

Additional observations from a re-analysis of the deposited data

How the results depend on the processing

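With the values as deposited, 373 genes were higher and 183 lower, and the counts moved mainly with the floor and the threshold. Without a floor they were 645 and 642, with a floor 2 times as high they were 218 and 78, with a mean log2 level of 6 or more 235 and 102, and at 3-fold 225 and 47. A pseudocount of 16 gave 319 higher and 111 lower, and centring on the reference genes, which shifted the median of all genes by 0.20, gave 446 and 112. Centring on all genes (385 and 155), a loess fit (409 and 140, a shift of 0.11), quantile normalization (373 and 183) and the mean of probe sets (363 and 172) stayed within 1.5-fold of the deposited counts. Lists with a median of 2-fold or more numbered 14, and 2 without a floor. Of 1188 genes recomputed, 380 were called, and 0 of these reversed direction under the centrings, loess, quantile normalization, pseudocount or mean of probe sets. The centrings, with shifts of 0.05 and 0.20, and the pseudocount, which keeps the sign, could not reverse a call, so the 0 says nothing for them. Under at least one of these settings 64 of the called genes fell short of 2-fold. Of them 31 did so with the centring on the reference genes, 12 with the centring on all genes and 20 with loess, all of them lower genes, 55 with the pseudocount (26 higher and 29 lower), 2 with quantile normalization and 3 with the mean of probe sets. Of the 1188 genes 178 moved by more than 0.308 with the pseudocount, which pulls in dim genes, and 4 moved with the mean of probe sets. No paired analysis was possible because each condition has 1 array, and for the same reason no array could be left out. Signal over background limits the folds of genes that read under 16 on either array.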

Other observations

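Among genes that belong to none of the lists, 115 were higher and 76 were lower, and the genes in these paragraphs were chosen after their values were seen. The peptide transporter that feeds MHC class I was higher in both chains, with Tap1 at 193 with poly I:C and 32.5 in media (2.57) and Tap2 at 97.5 with poly I:C and 21.2 in media (2.20), and tapasin, Tapbp, which couples it to class I, was at 598 with poly I:C and 207 in media (1.53). Lap3, a leucine aminopeptidase that trims peptides, was at 112 with poly I:C and 40.6 in media (1.46). Further antiviral genes were Ifitm3, which blocks viral entry in endosomes (1549.7 against 243, 2.67), the helicase Mov10 (109.8 against 18.3, 2.59) and Cmtr1, a cap methyltransferase (132 against 47.6, 1.47). Scimp, an adaptor of antigen-presenting cells, was at 108 with poly I:C and 7.19 in media (3.91), and Tgm2, a transglutaminase, at 229 with poly I:C and 55.1 in media (2.05). Tspo, an outer mitochondrial membrane protein, was at 453 with poly I:C and 112 in media (2.01), and the glutaredoxin Glrx at 178 with poly I:C and 40.9 in media (2.12). Klk1b11 was at 125 with poly I:C and 29.2 in media in normoxia (2.10) and at 248 with poly I:C and 217 in media in hypoxia (0.19).

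Lower genes outside the lists included Mfge8, a bridging protein for the uptake of dying cells (59.4 against 151, -1.35), Anxa3 (108 against 388, -1.84) and Septin11 (50.5 against 174, -1.78). The adducin gene Add3 was at 15.9 with poly I:C and 67.1 in media (-2.08) and the focal adhesion gene Lpp at 26.4 with poly I:C and 111 in media (-2.08). Calm2, a calmodulin gene, was at 383 with poly I:C and 789 in media (-1.04). The chromatin genes Supt16 (48.4 against 99.8, -1.05), Rbbp7 (43.3 against 89.1, -1.04) and Atrx (37.2 against 84.8, -1.19) were lower, though like Calm2 by less than 2-fold after centring on the reference genes, and in hypoxia their differences were -0.11, -0.65 and -0.68. Xist, the RNA that silences 1 X chromosome in female cells, was at 147 with poly I:C and 373 in media in normoxia (-1.34) and at 178 with poly I:C and 335 in media in hypoxia (-0.91).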
